A study of Mus musculus with 6 samples.

Results

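Foxp3 and the Ikaros family are 5 transcription factor genes, Foxp3, Ikzf1, Ikzf2, Ikzf3 and Ikzf4, and their RNA was followed in regulatory T cells (Treg) of HDAC9-/- and wild type mice. Every probe set whose gene symbol in the array annotation is 1 of the 5 was taken, which gave 5 of 22690 probe sets. Foxp3, Ikzf1 and Ikzf2 had 1 probe set each and Ikzf4 had 2. Ikzf3, which encodes Aiolos, had 0 in that annotation and was not analysed here. There were 3 preparations of CD4+CD25+ T cells from HDAC9-/- mice labelled C57BL/6, which were set against 3 such preparations from wild type C57BL/6 mice. The cells had been isolated with magnetic beads, and each preparation was hybridised to 1 Affymetrix expression array. The series title places the comparison in the question of how deacetylases control Foxp3+ Treg. The genotype is given for the mouse, with no Cre or promoter that would limit the deletion to Treg. The sources used here give neither the age of the mice, nor the deleted exons, nor whether a sample is 1 mouse or a pool, and p-values therefore reflect only how far these samples spread.

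Foxp3 is a forkhead transcription factor that defines Treg and that these cells need for their suppressive function. Its protein works with other nuclear factors, and its stability and DNA binding are regulated by acetylation, which links it to deacetylases such as HDAC9. The Ikaros family are zinc finger proteins that bind DNA and pair with each other through fingers at the C terminus, and they often repress genes together with corepressor complexes that hold deacetylases. Ikzf1 encodes Ikaros, a regulator of lymphocyte development, Ikzf2 encodes Helios, found in a large share of Treg, and Ikzf4 encodes Eos, which can bind Foxp3 and take part in gene silencing. An array measures RNA only, so the amount, acetylation and activity of these proteins were not measured.

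The arrays were alike in scale, with median log2 values of 5.78 to 5.79 in HDAC9-/- and 5.69 to 5.81 in wild type samples. The lowest median was that of wild type replicate 3, whose mean correlation with the other arrays over all probe sets was 0.991, against 0.994 to 0.996 for the rest. The 3-prime minus 5-prime difference of the Gapdh control probe sets, a measure of RNA integrity and labelling, was 0.15 to 0.28 in HDAC9-/- and 0.03 to 0.11 in wild type samples and did not overlap. The 1 probe set of Hdac9 was dim, at log2 values of 3.74, 3.62 and 3.66 in HDAC9-/- and 3.50, 3.74 and 4.10 in wild type samples. It cannot check the genotype labels while the deleted exons are unknown. The T cell markers measured (Cd3d, Cd3e, Cd3g, Cd4 and Cd28) averaged 11.28 to 11.31 in HDAC9-/- and 11.27 to 11.38 in wild type samples, and the Treg markers Il2ra, Ctla4, Tnfrsf18 and Izumo1r averaged 10.62 to 10.75 in HDAC9-/- and 10.68 to 10.73 in wild type samples. All of these markers were above the median probe set, at 5.76.

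Foxp3 RNA was high and nearly the same on all 6 arrays. Its probe set 1420765_a_at, of the type designed to match alternative transcripts of 1 gene, had log2 values of 10.35, 10.33 and 10.44 in HDAC9-/- samples, against 10.35, 10.29 and 10.38 in wild type samples. The groups interleave, with HDAC9-/- replicate 3 highest and wild type replicate 2 lowest. The range over all 6 arrays was 0.15, and the spread within groups was smaller than for all but 9.03% of the 22626 probe sets tested. The difference was 0.03 on the log2 scale, with an error of 0.07 (SE; adjusted p = 0.886 in limma's fit). The 95% confidence interval ran from -0.13 to 0.19, so levels from 0.916 to 1.14 times the wild type level lie within it. In RNA of a whole cell preparation, fewer cells of a type and less RNA per cell cannot be told apart.

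Ikzf1 was dim and did not differ beyond the spread. Its probe set 1421303_at read 5.14, 5.42 and 5.25 in HDAC9-/- samples, against 5.40, 5.44 and 5.21 in wild type samples. The highest value was in wild type replicate 2 and the lowest in HDAC9-/- replicate 1, with the others mixed between them. The difference was -0.08 with a standard error of 0.10 (adjusted p = 0.808), and the 95% interval of the fold change ran from 0.799 to 1.12. Both group means were in the dimmer part of the array, under the median of 5.76, where RMA values understate fold changes.

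Ikzf2 varied most of the 5 probe sets, and 1 wild type array set the sign of its difference. The probe set 1421643_at read 4.89, 5.05 and 5.29 in HDAC9-/- samples, against 5.0, 5.24 and 4.36 in wild type samples. Wild type replicate 3 was far below the other 5 arrays, which lay within 0.40 of each other. The spread within groups exceeded that of 95.8% of all probe sets tested. The difference was 0.21 with a standard error of 0.23 (adjusted p = 0.786), and the interval of the fold change, 0.795 to 1.68, was the widest of the members. Without wild type replicate 3 the difference was -0.04, and with array weights, which count variable arrays less, it was 0.03. This array was also the one with the lowest median of all probe sets and the lowest correlation with the rest, and whether that accounts for its low Ikzf2 value was not tested.

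Ikzf4 was measured by a bright and a dim probe set, and neither passed the test. The bright probe set 1438274_at read 8.50, 8.78 and 8.96 in HDAC9-/- samples, against 8.89, 9.06 and 8.60 in wild type samples. HDAC9-/- replicate 1 was lowest and wild type replicate 2 highest, and the groups overlap over most of their range. The difference was -0.10 with a standard error of 0.16 (adjusted p = 0.844), and the interval of the fold change ran from 0.720 to 1.20. Without HDAC9-/- replicate 1 the difference was 0.02 and without wild type replicate 2 it was 0.0004, so its negative sign rests on each of these arrays.

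The dim Ikzf4 probe set 1460664_at came closest of the 5 to separating the genotypes. It read 5.84, 5.91 and 5.83 in HDAC9-/- samples, against 6.03, 6.19 and 5.86 in wild type samples. Only HDAC9-/- replicate 2 and wild type replicate 3 cross, by 0.05. The difference was -0.16 with a standard error of 0.10 (limma, unadjusted p = 0.134, adjusted p = 0.638), a fold change of 0.892 with an interval of 0.760 to 1.05. It was -0.25 without wild type replicate 3 (unadjusted p = 0.0195, adjusted p = 0.384), -0.21 with array weights (limma, unadjusted p = 0.0347), -0.19 with quantile normalization again (unadjusted p = 0.0376) and -0.08 without wild type replicate 2 (adjusted p = 0.759). The 2 Ikzf4 probe sets disagree about HDAC9-/- replicate 3. It deviated from the mean of the 6 arrays by 0.16 in the bright probe set and by -0.12 in the dim one, while wild type replicate 2 was the highest array in both.

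**Figure D1:**
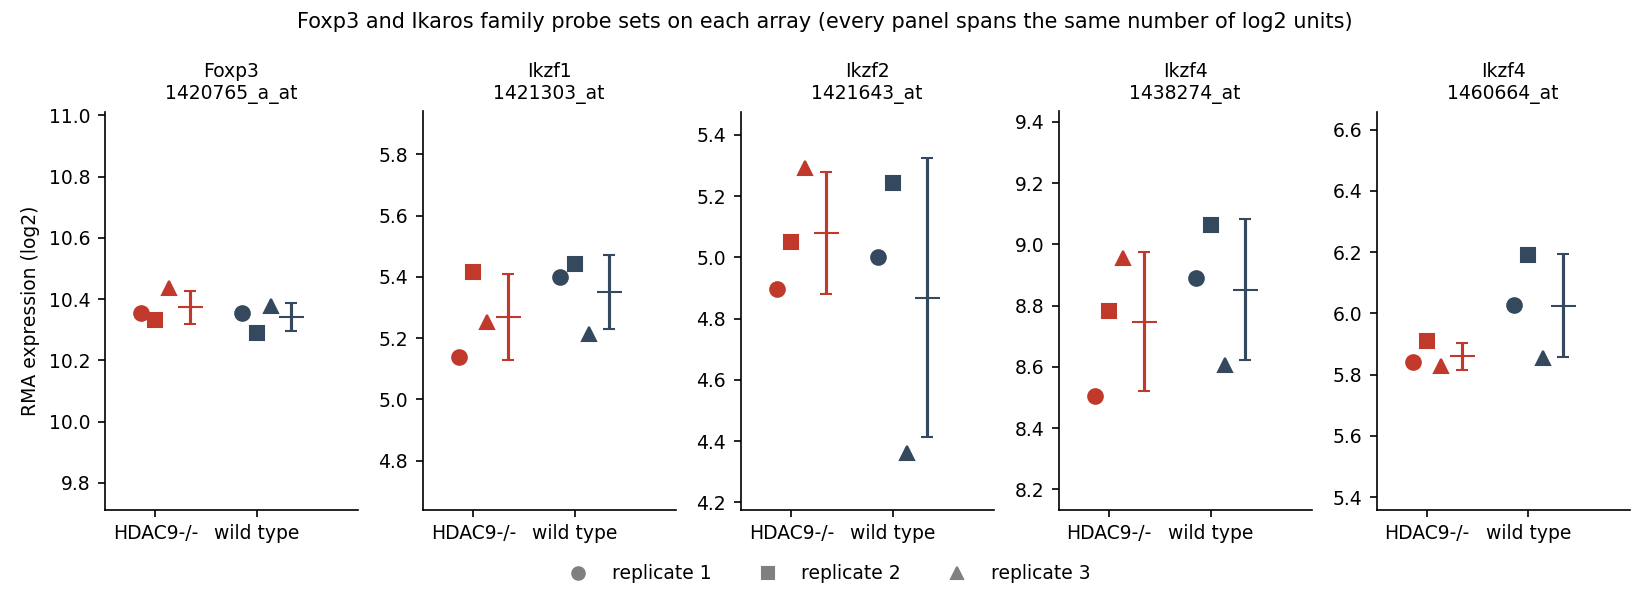
Log2 RMA expression of the 5 member probe sets on each of the 6 arrays, with HDAC9-/- samples in red and wild type samples in dark blue, marker shapes for the replicate number, and bars for the mean and SD of 3 arrays. Foxp3 points lie within 0.15 of each other, Ikzf2 has 1 low wild type array at 4.36, and the genotypes overlap in every panel.

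Of the 5 probe sets, 0 passed an adjusted p of 0.05 and 0 had an unadjusted p below 0.05 in limma. Over the whole array 0.0133% of probe sets passed (3 of 22626) and 8.78% had an unadjusted p below 0.05. The genotypes overlapped in all 5 probe sets, where they did not overlap for 17.0% of the array. The point estimates were positive for Foxp3 and Ikzf2 and negative for Ikzf1 and both Ikzf4 probe sets. The absolute difference of Foxp3 exceeded that of 18.2% of probe sets tested, that of Ikzf1 45.5%, those of the bright and dim Ikzf4 probe sets 55.2% and 75.3%, and that of Ikzf2 84.3%. These intervals exclude neither small shifts nor, for Ikzf2, a shift above 1.5 times, so the result is an absence of detected change at 3 arrays per genotype.

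The members differ in where they rank among all probe sets of an array, and for Foxp3 and Ikzf1 that rank was nearly the same in both genotypes. Foxp3 stood at the 94.7th to 95.1st percentile in HDAC9-/- and the 94.6th to 94.9th in wild type samples. The bright Ikzf4 probe set stood at 80.9 to 85.3% in HDAC9-/- and 82.3 to 86.4% in wild type samples, and the dim one at 50.4 to 51.4% in HDAC9-/- and 52.1 to 54.3% in wild type samples. For the dim probe set the percentiles of the genotypes do not overlap, although the log2 values cross. The share of all probe sets with percentiles apart was not computed (17.0% for log2 values), so this is no result about Ikzf4. Ikzf1 stood at 43.0 to 46.0% in HDAC9-/- and 44.3 to 46.1% in wild type samples. Ikzf2 stood at 39.8 to 44.9% in HDAC9-/- and at 41.5, 43.7 and, for replicate 3, 31.0% in wild type samples. The ranks describe the probe sets and give no order of RNA amounts between genes, because probes bind with different strength. The files hold no detection calls, so whether the Ikzf1 and Ikzf2 probe sets read above background is not known.

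**Figure D2:**
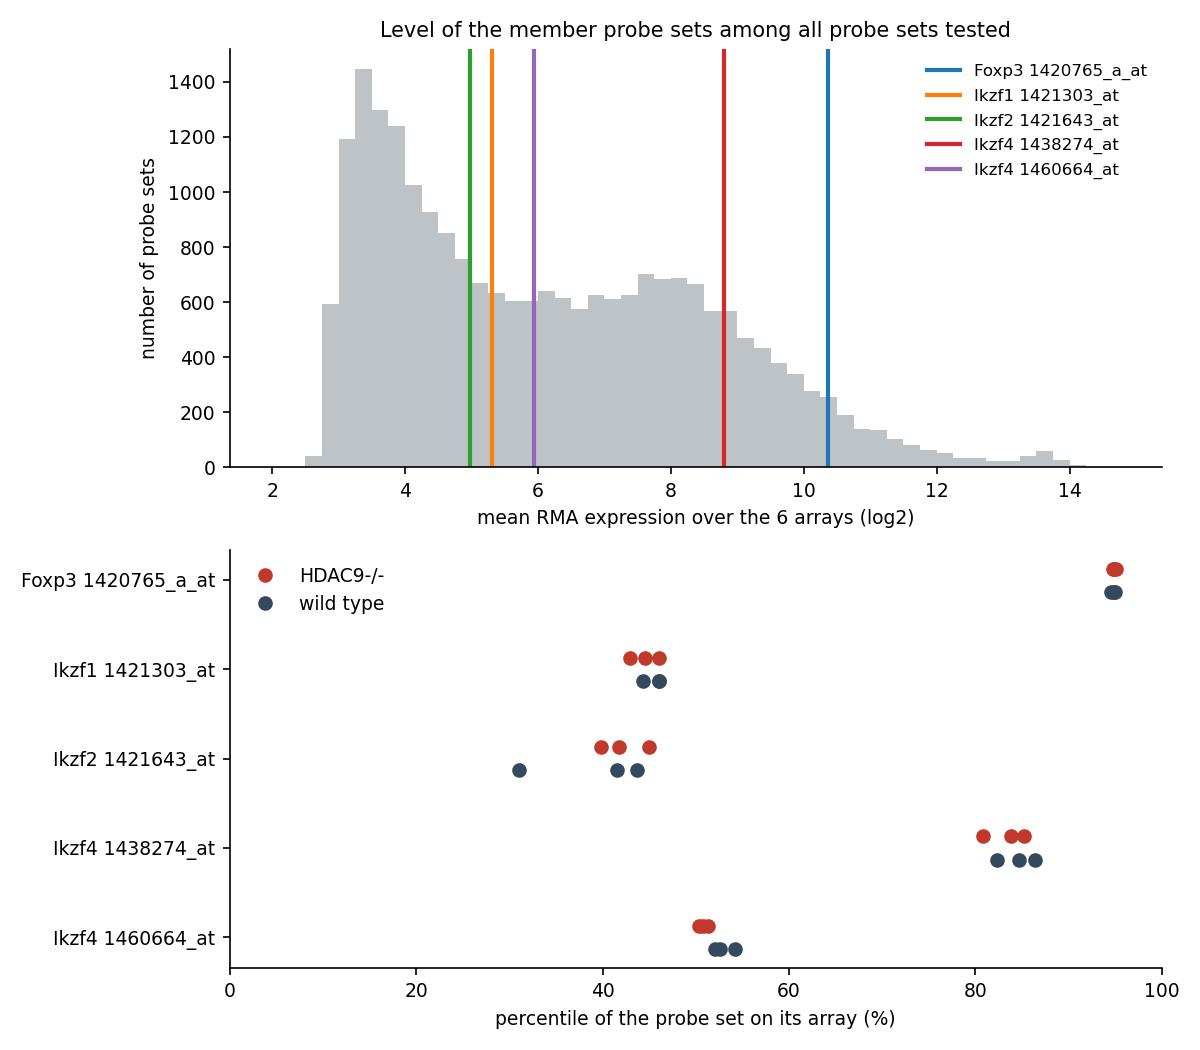
Top, histogram of the mean log2 RMA expression of all 22626 probe sets tested, with a line at the mean of each member probe set over 6 arrays. Bottom, percentile of each member probe set on each array, HDAC9-/- in red above wild type in dark blue. Foxp3 lies near the 95th percentile on every array, and Ikzf1 and Ikzf2 lie below the middle of the distribution.

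Some other genes followed the members from array to array. For each gene's brightest probe set, the 3 genes with the most similar pattern over the 6 arrays are named, by Pearson correlation as a description, among probe sets at or above the median level with a range of at least 0.3. The Foxp3 pattern was closest to that of Hilpda, a lipid droplet protein gene (0.980), the amino acid transporter gene Slc38a2 (0.973) and 1700037H04Rik (0.970). For Ikzf1 they were Actn1, which encodes an actin crosslinker (0.977), the copper transporter gene Slc31a2 (0.970) and Pdcd6ip, an endosomal sorting factor (0.969). Ikzf2 was most like the transcription factor gene Nfix (0.998), Ndufaf4, an assembly factor of respiratory complex I (0.995), and the stress granule gene G3bp1 (0.992). All 3 had their lowest value in wild type replicate 3, as Ikzf2 did, with 5.72 for Nfix there and 6.23 to 6.56 on the other arrays. For Ikzf4 they were Scaf4, an RNA processing factor (0.9999), Ttc39b (0.994) and the pro-apoptotic gene Bcl2l11 (0.991). These genes were picked as the highest among all probe sets searched over only 6 arrays, so the size of their correlation is no more than a description. None of the 12 passed the test between genotypes.

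Proteins that act with Foxp3 or on its gene were described from a list of 44, of which 38 had a probe set of 1 symbol. Each gene was taken by its brightest probe set. Of the 38, 18 lay on the positive and 20 on the negative side, and their median difference was -0.02 beside 0.01 for all 12393 genes. None passed in either direction, where 0.00807% of genes passed. The background at an unadjusted p below 0.05 was 6.12% higher and 2.62% lower, and in the list 3 genes were higher and 1 lower. Uhrf1, which recruits the maintenance DNA methyltransferase, read 8.34, 8.18 and 8.28 in HDAC9-/- samples, against 7.88, 7.91 and 7.87 in wild type samples (difference 0.38, adjusted p = 0.339). The groups are apart, and the other Uhrf1 probe set had a difference of 0.28. Med14, a Mediator subunit, had a difference of 0.47 (adjusted p = 0.433), in a probe set just below the median level of the array. Yy1, a zinc finger factor able to bind and inhibit Foxp3, had a difference of -0.16 in its brightest probe set (adjusted p = 0.549), while its 4 probe sets ran from -0.16 to 0.35. Of these, 3 were negative, and the positive one, 1422570_at, had groups apart and the smaller adjusted p (0.342 in limma). The Yy1 probe sets thus give no common direction.

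None of the other partners passed, and those below were chosen with their values in view. The most negative differences of the list were -0.22 for Ets1, a factor that binds the Foxp3 gene (adjusted p = 0.609, groups apart), -0.21 for Lef1, -0.20 for Satb1, an organiser of chromatin, and -0.20 for Runx3, all 3 with overlapping groups. Runx1, a partner in activating and silencing genes, averaged 7.48 ± 0.02 in HDAC9-/- and 7.37 ± 0.08 in wild type samples (SD, n = 3). Its cofactor gene Cbfb had a difference of -0.02, Nfatc1 and Nfatc2 of -0.02 and -0.08, and Stat5b, which carries the interleukin-2 signal to the Foxp3 gene, of -0.04. The deacetylase genes named beside Hdac9 in the series title did not pass either: Hdac6 had a difference of 0.21 with groups apart (limma, unadjusted p = 0.0388, adjusted p = 0.557) and Sirt1 one of less than 0.01.

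Corepressor subunits that Ikaros proteins bind, from the NuRD, Sin3 and CtBP complexes, were all measured. Of 16 genes, 10 were on the positive and 6 on the negative side, the median difference was 0.03, and 0 passed. At an unadjusted p below 0.05, 1 was higher and 1 lower, where the background was 6.12% higher and 2.62% lower. Hdac1, the catalytic deacetylase of NuRD and Sin3 complexes, read 9.96, 9.78 and 9.88 in HDAC9-/- samples, against 10.22, 10.13 and 10.21 in wild type samples. All 3 HDAC9-/- values are below all wild type values, with a difference of -0.31 (adjusted p = 0.422). Its paralog Hdac2 had a difference of -0.24, with overlapping groups (adjusted p = 0.602), and one of -0.13 without wild type replicate 3. Ctbp2, of the CtBP corepressors that Eos can bind, had a difference of 0.32 (adjusted p = 0.441), with both of its probe sets below the median level. Chd4, the ATPase of NuRD, averaged 9.30 ± 0.02 in HDAC9-/- and 9.32 ± 0.04 in wild type samples (SD, n = 3).

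Of the other forkhead genes, 13 of 15 listed had a probe set, of which 9 were on the positive and 4 on the negative side, around a median difference of 0.06. None passed, and at an unadjusted p below 0.05, where the background was 6.12% higher and 2.62% lower, 1 was higher. That gene, Foxk1, a repressor linked to metabolism and autophagy, had a difference of 0.32 (adjusted p = 0.494), and its dimmer probe set had one of -0.12. Foxo1, which binds the Foxp3 gene and supports its expression, had a difference of 0.16 in its brightest probe set, at 10.26, 10.32 and 10.35 in HDAC9-/- against 10.23, 10.18 and 10.05 in wild type samples. Its 3 other probe sets had negative differences of -0.03 to -0.27, so the probe sets of Foxo1 give no common direction. Foxo4 had a difference of 0.20 (adjusted p = 0.601), and one of 0.13 without HDAC9-/- replicate 2. Its probe set lies below the median level of the array. Foxp1, of the same subfamily as Foxp3, averaged 10.97 ± 0.31 in HDAC9-/- and 10.79 ± 0.25 in wild type samples (SD, n = 3).

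Genes that Foxp3 is known to raise in Treg lay on both sides of 0. Of 24 listed genes 22 were measured, 12 on the positive and 10 on the negative side, with a median difference of 0.01 that turned negative with repeated quantile normalization, aligned medians, array weights or without HDAC9-/- or wild type replicate 3. None passed. At an unadjusted p below 0.05, where the background was 6.12% higher and 2.62% lower, there were 0 higher and 2 lower. These were Ecm1, an extracellular matrix protein gene of Treg (-0.29, adjusted p = 0.441), and Socs2, a feedback inhibitor of cytokine signalling (-0.22, adjusted p = 0.561). Itgae, the integrin CD103 of Treg in epithelia, had a difference of 0.22 (adjusted p = 0.598), and one of 0.13 without HDAC9-/- replicate 3. Il2ra, which encodes the CD25 used to isolate the cells, read 9.42, 9.34 and 9.42 in HDAC9-/- and 9.45, 9.46 and 9.54 in wild type samples. Its groups were apart by 0.02 and its difference was -0.08 (adjusted p = 0.712).

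Genes that Foxp3 is known to repress had a median below that of all genes, with Il4, Ifng and Id2 at the low end. Of 18 listed genes 14 were measured, 6 on the positive and 8 on the negative side, and the median difference was -0.11. None passed by the brightest probe set. At an unadjusted p below 0.05 there were 0 higher and 4 lower, where the background was 6.12% higher and 2.62% lower. This list, like the others, was chosen with earlier results of these data known, so its counts are no more than a description. Il4, the T helper 2 cytokine, read 5.12, 5.04 and 5.01 in HDAC9-/- samples, against 6.02, 5.70 and 5.85 in wild type samples (difference -0.80, adjusted p = 0.202). The groups are apart, with the wild type values near the median level of 5.76 and the HDAC9-/- values in the dimmer part of the array below it. Id2, an inhibitor of DNA-binding E proteins, read 10.17, 10.21 and 10.23 in HDAC9-/- and 10.61, 10.36 and 11.06 in wild type samples (difference -0.47, adjusted p = 0.542). Without wild type replicate 3, the highest array, the Id2 difference was -0.28. A probe set of Id2 nearly as bright had a difference of -0.36 with groups apart. Ifng, the T helper 1 cytokine, had a difference of -0.56 with overlapping groups (adjusted p = 0.530). The fourth is Il7r, the interleukin-7 receptor chain, at -0.22 in its brightest probe set, and its dimmer probe set 1448576_at did pass (-1.34, adjusted p = 0.00999). That call was lost with the replicate number as a block (adjusted p = 0.329) and without any single array other than wild type replicate 3 (adjusted p = 0.0606 to 0.113), while the difference stayed at -1.26 or lower in these fits. Il2, a gene that Eos and Foxp3 silence, averaged 6.02 ± 0.30 in HDAC9-/- and 6.00 ± 0.18 in wild type samples (SD, n = 3).

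The mean level of the measured Foxp3-repressed genes was 8.28 to 8.33 in HDAC9-/- and 8.41 to 8.52 in wild type samples, while Foxp3 itself overlapped. Il4, Ifng and Id2 weigh most in that gap, with differences of -0.80, -0.56 and -0.47, while 6 of the 14 genes were positive. Whether the groups stay apart without them was not tested, so the gap cannot be read as a shift of the whole list. The mean level of the 13 forkhead genes was also apart, narrowly and in the other direction, at 7.160 to 7.166 in HDAC9-/- and 7.04 to 7.14 in wild type samples. Its largest difference was that of Foxk1, at 0.32, whose dimmer probe set was at -0.12. Whether the forkhead levels stay apart without Foxk1 was not tested, so this gap cannot be read as a shift of that list either. The other 4 lists overlapped. Other measures separated the genotypes in the same arrays. The 11 myeloid markers all had positive differences and averaged 8.27 to 8.70 in HDAC9-/- and 7.80 to 8.25 in wild type samples, and the 3 plasma cell markers averaged 9.02 to 9.24 in HDAC9-/- and 9.36 to 9.41 in wild type samples. The 5 measured B cell markers overlapped, with averages of 6.56 to 7.22 in HDAC9-/- and 6.78 to 6.96 in wild type samples, and so did the 7 markers of CD8 T and natural killer cells, at 8.15 to 8.57 in HDAC9-/- and 8.04 to 8.27 in wild type samples. The 2 red cell markers averaged 3.77 to 4.0 in HDAC9-/- and 3.93 to 4.20 in wild type samples. The Gapdh 3-prime to 5-prime difference was also apart, as given above, whereas that of the actin control probe sets overlapped, at 0.42 to 0.60 in HDAC9-/- and 0.33 to 0.46 in wild type samples. The part of these measures in the list levels was not tested.

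Lymphocyte genes that Ikaros is known to regulate were mixed. Of 22 listed genes 21 were measured, 8 on the positive and 13 on the negative side, and the median difference was -0.03. That median was -0.10 without HDAC9-/- replicate 2, -0.10 without wild type replicate 3, -0.11 with array weights and -0.0051 without HDAC9-/- replicate 3. None passed. At an unadjusted p below 0.05 there were 2 higher and 3 lower, where the background was 6.12% higher and 2.62% lower. The 3 lower were Tbx21, Ifng, already counted among the Foxp3-repressed genes, and Vpreb1, whose mean of 4.47 lies below the median level. Tbx21, which encodes T-bet and which Ikaros represses in T helper 2 cells, read 7.74, 7.83 and 7.71 in HDAC9-/- samples, against 8.50, 8.13 and 8.25 in wild type samples (difference -0.54, adjusted p = 0.398). The groups are apart. Dntt, the terminal transferase of developing lymphocytes, had a difference of 0.56 in its brightest probe set (adjusted p = 0.498), which lies below the median level of the array. Its 3 probe sets ran from 0.04 to 0.56. Flt3, a receptor of progenitors and dendritic cells, had a difference of 0.47 (adjusted p = 0.517), and it is also 1 of the myeloid markers that were higher in HDAC9-/- samples.

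**Figure D3:**
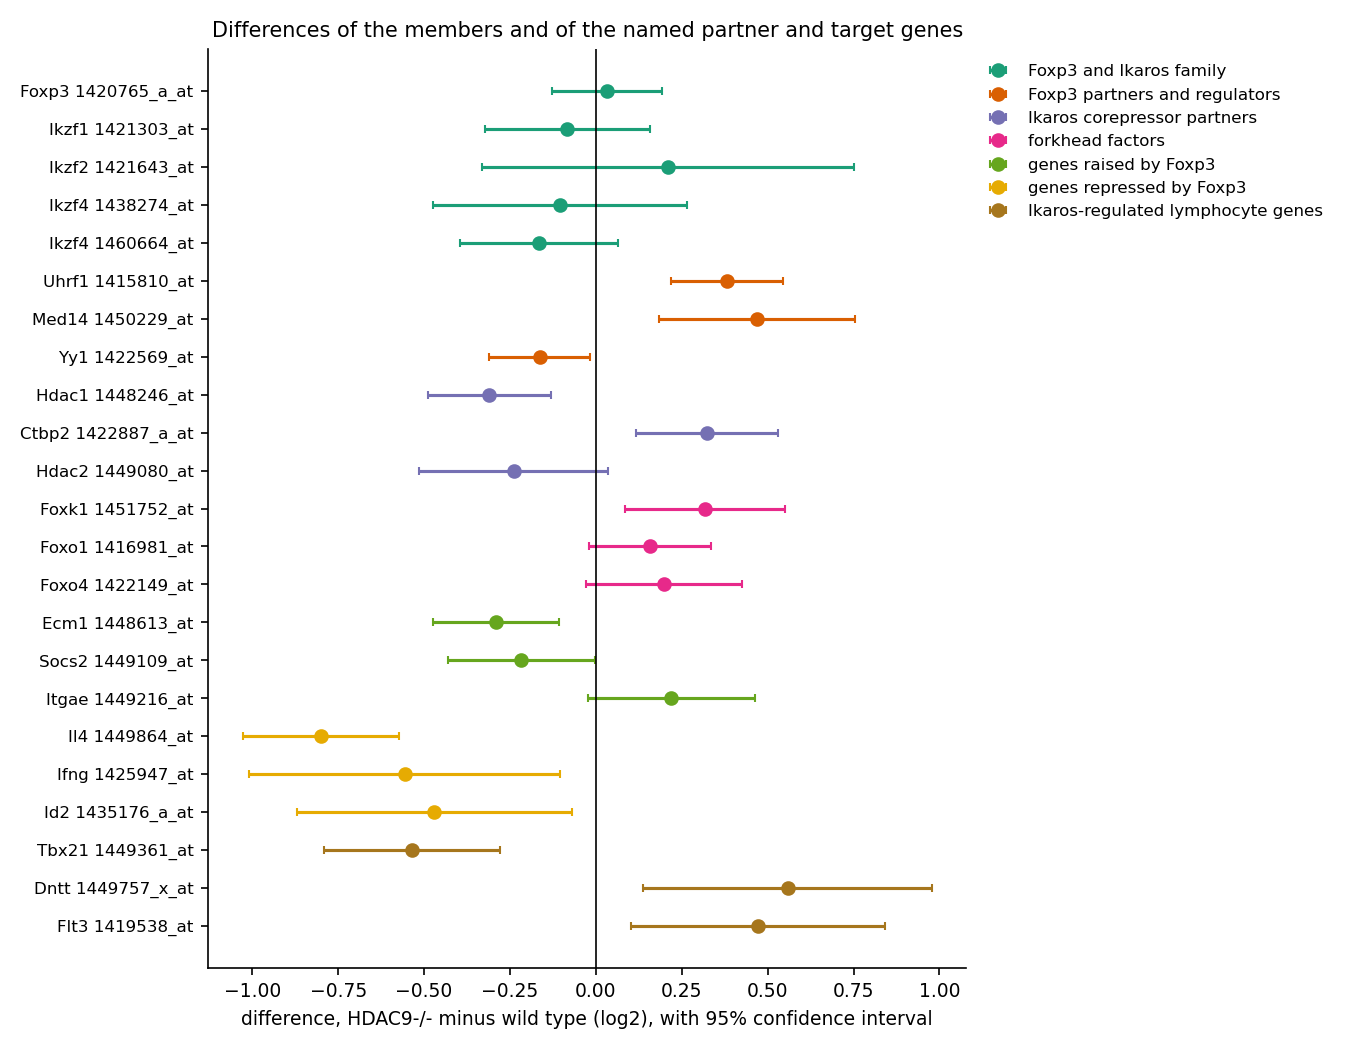
Log2 differences, HDAC9-/- minus wild type (points), with 95% confidence intervals (bars) for the 5 member probe sets and for the 3 genes with the smallest unadjusted p of each list, chosen for that and so not typical of their lists. The intervals of all 5 member probe sets cross 0, with the narrowest for Foxp3 (-0.13 to 0.19) and the widest for Ikzf2 (-0.33 to 0.75).

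**Figure D4:**
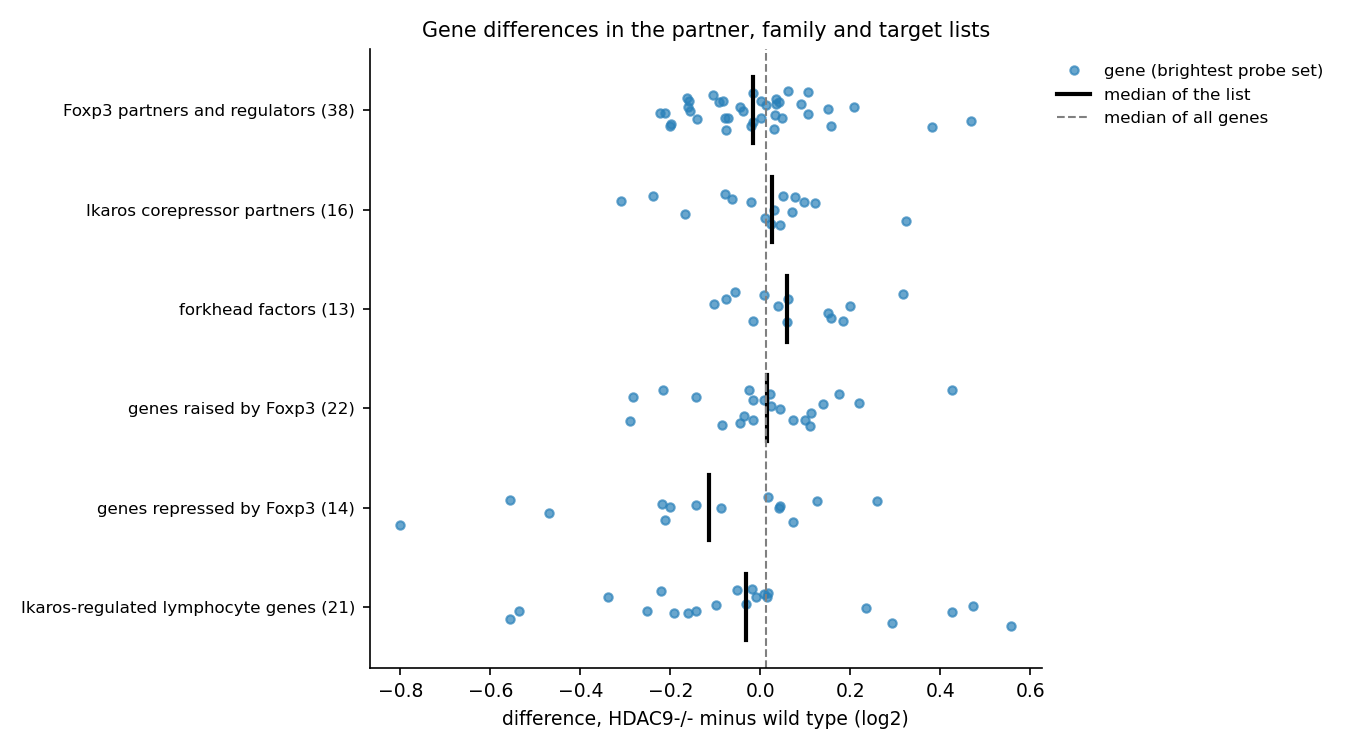
Difference of HDAC9-/- minus wild type (log2) for every measured gene of the 6 lists, 1 point per gene by its brightest probe set, with the number of genes in parentheses, a black bar at the list's median and a dashed line at the median of all genes (0.01). The Foxp3-repressed list has the lowest median (-0.11), with Il4, Ifng and Id2 at its low end.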

How the data were processed

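In the deposited table each probe set has 1 log2 value on each array, which the authors computed by RMA, per the submitters' processing notes. Its version, its settings and the genome build were not given in the sources used here. RMA in its usual form corrects background, brings arrays to a common distribution and summarises probes, and it compresses fold changes of dim probe sets. Values ran from 2.42 to 14.32. Per the labels' protocols, RNA was purified on columns and a commercial kit was used to amplify it. Groups and replicate numbers came from sample titles.

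After removal of 64 control probe sets, 22626 were tested without a filter. Of these, 20380 carry 1 gene symbol, 691 several and 1555 none, and only the first were named, with 20351 symbols updated by Entrez identifier through the mouse gene table of GRCm38.p6. Differences are HDAC9-/- minus wild type from lmFit and eBayes of limma 3.58.1 under R 4.3.3, with genotype as the only term. The adjustment (Benjamini-Hochberg) ran over all 22626, with a threshold of 0.05. Intervals cover 95%. Precision is limited by the number of arrays, 3 per genotype.

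The members and the lists were chosen with earlier results of these data known, and the lists come from general knowledge of these factors. The text names all members, list genes past the threshold or otherwise the 3 with the smallest unadjusted p, and the 3 genes most like each member. Other list genes (Ets1, Lef1, Satb1, Runx3, Runx1, Cbfb, Nfatc1, Nfatc2, Stat5b, Hdac6, Sirt1, Chd4, Foxp1, Il2ra, Il7r, Il2 and Vpreb1) were chosen after their values were seen. The fit was tested on simulated data. Alternatives were repeated quantile normalization, aligned array medians, a filter at the median level, a trended and robust variance prior, weights per array, a block for the replicate number, leaving out each array, other thresholds and the mean of all probe sets of a gene. Plots used matplotlib 3.10.9 under Python 3.11.15.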

Additional observations from a re-analysis of the deposited data

How the results depend on the processing

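Of the 5 member probe sets, 0 passed an adjusted p of 0.05 under any of the settings tried, nor one of 0.10 with the values as reported. At an unadjusted p of 0.05 there were 0 as reported and 1, the dim Ikzf4 probe set, with quantile normalization again, with array weights and without wild type replicate 3. The count over the whole array, 3, was 15 with the trended and robust prior, 6 with array weights, 0 with the replicate block, 5 at an adjusted p of 0.10, 1987 at an unadjusted p of 0.05 and 0 to 6 when single arrays were left out. The difference of Foxp3 ran from 0.0013 to 0.053 and that of Ikzf1 from -0.16 to -0.017 over all settings that gave a value. The sign turned for Ikzf2, at -0.043 without wild type replicate 3 (0.40 at the other end, without wild type replicate 2). It also turned for the bright Ikzf4 probe set, at 0.017 without HDAC9-/- replicate 1 and 0.00043 without wild type replicate 2 (lowest value -0.23). The adjusted p of the 5 probe sets ran from 0.384 to 0.999. The filter at the median level removed Ikzf1 and Ikzf2, and no setting could be run for Ikzf3. For arrays with the same replicate number, deviations from the group means correlated at 0.036, 0.099 and -0.25. Pairs with different numbers ran from -0.35 to 0.28, which includes these values. With 3 arrays per genotype, these correlations cannot decide whether arrays with the same number were paired in the experiment. The block changed no member's call. For the 18 list genes with the smallest p, no direction turned under the settings listed for the whole array. With the mean of all probe sets of a gene, an alternative chosen after seeing the data, Foxo1 turned to -0.084, Yy1 was -0.0035 and Foxk1 0.099.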
